A study of Mus musculus with 7 samples.

Results

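The genes described here are 10 imprinted genes that have been linked to fetal growth: Dlk1, Meg3, Plagl1, Peg3, Mest, Grb10, Slc38a4, Ndn, Peg10 and Impact. They were followed in whole mouse bladder at 2 ages and in whole newborn mice. All probe sets that the platform annotation gives to 1 of these genes and to no other gene were taken, 39 of the 45037 probe sets left after removal of controls, and the 10 genes are part of 18193 genes named in this way. The probe set with the highest mean over the 7 arrays stood for each gene, and the others served to see whether probe sets of 1 gene agreed. The bladders came from male mice of strain FVB/N with the transgene SMGA/EGFP, in which regulatory sequence of smooth muscle gamma-actin (Actg2) drives a green fluorescent protein, so that the bladders of both ages share that transgene. There were 3 arrays of adult bladder (Theiler stage 28), 3 of bladder from postnatal day 1 (Theiler stage 27) and 1 of a pool of whole wild-type FVB/N newborns, 4 males and 4 females, from the same day. The title of the pooled sample names bladders, while whole animals are given in its source and its protocol, and it was taken here as whole newborns. Each bladder was dissected whole, with no pooling stated for its array, and an age for the adults is not given in the sources used here. The p-values rest on the spread between the bladder arrays, and the single whole newborn array was assumed to vary like them.

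Imprinted genes are expressed mainly from the copy inherited from 1 parent, and many of them raise or restrain growth before and after birth. A number of them are known in mice to be active together in many fetal organs and to be turned down as the animal grows up, and Plagl1, a zinc finger transcription factor, has been described as a regulator of other members of this network. Dlk1 and Meg3 lie in the same imprinted domain and are expressed from opposite parental copies, Dlk1 from the paternal and Meg3 from the maternal one.

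Promoter windows from RefSeq (build GRCm38.p6, 250 bases before to 50 bases after the annotated start) matched 8 of the 10 genes, with 14 windows among them. A window is shown for each of Dlk1 and Slc38a4, which had the 2 largest stage differences, and of Meg3 and Peg3, in which a motif was found. All windows were searched for TGACGTCA, the cyclic AMP response element, and for GGGGCCCC, a GC-rich motif used here for Plagl1. Both read the same on the 2 strands, and the matches, which do not overlap, are in capitals.
Dlk1, chr12:109452573-109452872, plus strand: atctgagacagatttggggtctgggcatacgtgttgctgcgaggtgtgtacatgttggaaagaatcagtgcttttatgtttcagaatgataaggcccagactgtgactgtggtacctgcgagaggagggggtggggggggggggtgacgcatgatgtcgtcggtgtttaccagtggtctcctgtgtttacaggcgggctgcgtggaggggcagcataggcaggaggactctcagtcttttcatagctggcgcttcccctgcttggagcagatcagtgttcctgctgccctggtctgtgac
Slc38a4, chr15:97055907-97056206, minus strand: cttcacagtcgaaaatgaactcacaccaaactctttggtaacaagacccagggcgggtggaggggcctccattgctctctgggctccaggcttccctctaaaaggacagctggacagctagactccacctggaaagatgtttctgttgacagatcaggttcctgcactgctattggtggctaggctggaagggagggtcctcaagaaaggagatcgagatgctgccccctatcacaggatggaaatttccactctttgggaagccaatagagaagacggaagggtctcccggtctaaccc
Meg3, chr12:109540746-109541045, plus strand: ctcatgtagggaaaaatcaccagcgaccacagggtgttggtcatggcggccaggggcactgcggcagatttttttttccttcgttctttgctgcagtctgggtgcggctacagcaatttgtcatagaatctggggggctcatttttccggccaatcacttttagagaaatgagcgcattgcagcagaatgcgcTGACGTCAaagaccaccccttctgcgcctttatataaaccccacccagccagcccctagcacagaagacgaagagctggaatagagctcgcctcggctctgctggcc
Peg3, chr7:6730370-6730669, minus strand: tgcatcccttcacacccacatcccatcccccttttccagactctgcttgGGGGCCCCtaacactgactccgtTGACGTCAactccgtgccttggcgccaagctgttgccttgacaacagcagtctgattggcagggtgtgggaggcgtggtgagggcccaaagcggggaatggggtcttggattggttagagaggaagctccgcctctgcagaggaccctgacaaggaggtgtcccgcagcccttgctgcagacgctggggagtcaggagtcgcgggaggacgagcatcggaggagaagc
The first motif lay 57 bases before the start in Meg3 and 178 bases before it in Peg3, and the second lay 201 bases before the start in Peg3. Of all 32851 RefSeq mouse windows of this length, 1.79% held the first motif and 1.08% the second. Counted by gene, 2.03% of 27025 genes had the first in a window and 1.25% the second. The other windows of the 8 genes held neither, which says only that these letters are not in those 300 bases. The windows also differed in CpG dinucleotides, with 9 in Dlk1, 5 in each window of Slc38a4, 13 in Peg3, 26 in Plagl1 and 11 in Ndn. There were 13 in this window of Meg3 and 1 in its other window, 45 and 9 in those of Grb10, and 8, 17 and 17 in those of Mest. The median over all 32851 RefSeq windows was 7.

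The deposited intensities had the same trimmed mean on each array, which was read here from the values as the authors' scaling. Array medians ran from 226 to 312 in adult bladder and from 209 to 290 in postnatal day 1 bladder, against 434 in whole newborns. Smooth muscle and urothelial markers were present at both ages, with summed intensities of 221519 to 303330 (adult) and 217238 to 285474 (postnatal day 1) for 7 smooth muscle genes, against 24308 in whole newborns. Adult replicate 2 and postnatal day 1 replicate 3 had the highest hybridization spike-in signal of their groups, 2.33 and 1.67 times that of the lowest array. Adult replicate 2 also had little signal for male accessory glands, whose 7 markers summed to 9915 and 9960 in adult replicates 1 and 3 and to 162 in adult replicate 2, against 92.5 to 312 in postnatal day 1 bladder. For Actb the 3' over 5' probe set ratio was 3.84 to 5.15 in adult and 1.85 to 3.70 in postnatal day 1 bladder. For Gapdh the ratio was 15.3 to 19.6 in adult and 19.1 to 30.9 in postnatal day 1 bladder. As the RNA was amplified in 2 rounds, the ratio was not read as a measure of RNA quality alone. Adjusted p-values below are from limma with Benjamini-Hochberg adjustment over all tested probe sets, differences are on the scale of log2(intensity + 49), and a probe set was called at an adjusted p under 0.05.

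Adult bladder held less of most of these transcripts than postnatal day 1 bladder. Dlk1, Slc38a4 and Mest showed the largest differences, Grb10, Plagl1, Meg3 and Ndn were also called lower in adult bladder, and Impact was called higher. Of the 9 genes whose probe set passed the filter on dim values, 7 were called lower and 1 higher, where 4.95% of all 11930 tested genes were called lower and 4.02% higher. Peg3 was tested and not called, and Peg10 did not pass the filter. Dlk1 passed the filter through the postnatal day 1 arrays alone, and was also called by limma without a filter (adjusted p = 0.00534). The median difference of the 9 genes was -1.60, against -0.01 over all tested genes. In 8 genes each adult array lay below each postnatal day 1 array, an order seen in 16.5% of all tested genes, in Impact each lay above, as in 15.8%, and in Peg10 the groups overlapped. In whole organs, fewer cells of a type and less RNA per cell cannot be told apart.

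**Figure D1:**
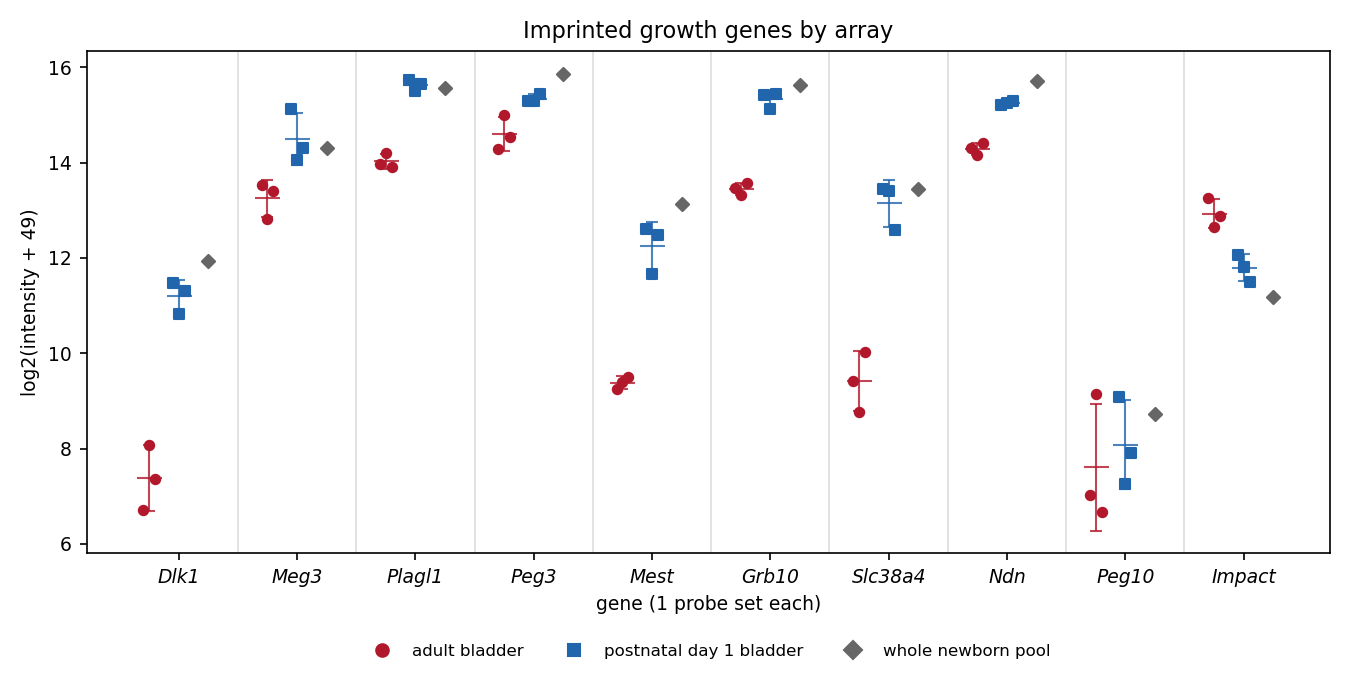
Level of each gene on each array, as log2(intensity + 49) of the probe set that stands for it. Circles are adult bladders, squares postnatal day 1 bladders and the diamond the whole newborn pool, with bars for mean and SD of 3 arrays. The adult points lie below the postnatal day 1 points in 8 genes, among them Dlk1 and Slc38a4, lie above them in Impact and overlap with them in Peg10.

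Dlk1 encodes a membrane protein with epidermal growth factor repeats that resembles Notch ligands and is known for holding back the differentiation of fat cell precursors. Its intensity was 55.5, 222 and 115 in the adult bladders and 2786, 1759 and 2479 in the postnatal day 1 bladders. All adult values were low and below their array medians, all postnatal day 1 values were high, and the lowest postnatal day 1 value was 7.94 times the highest adult one. The means were 131 ± 84.2 and 2341 ± 527 (adult and postnatal day 1 bladder, SD, n = 3 each), so that the adult level was 5.58% of that at postnatal day 1. Dlk1 fell by 3.82 on the log2 scale (95% interval -4.76 to -2.87, adjusted p = 0.00165). The size of the fall depends on the added constant because the adult values are dim, and it was -3.10 with 165 and -4.14 with 17 added. The call held in all 17 alternative settings. The other Dlk1 probe set, too dim to be tested, read 25.7, 90.2 and 66.3 in adult bladder, against 1396, 324 and 186 in postnatal day 1 bladder.

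Slc38a4 encodes a sodium-coupled transporter of neutral amino acids, known from liver and placenta. It read 640, 389 and 1001 in adult bladder, against 11153, 10765 and 6063 in postnatal day 1 bladder. The groups did not overlap, and their nearest values were 6.06 times apart. Mean intensities were 677 ± 308 in adult and 9327 ± 2833 in postnatal day 1 bladder (SD, n = 3 each), and the adult level was 7.26% of that at postnatal day 1. Slc38a4 fell by 3.73 on the log2 scale (95% interval -4.61 to -2.85, adjusted p = 0.0014) and was called in all 18 alternatives. A second probe set gave 32, 166 and 8.08 in adult bladder, against 2668, 3500 and 3378 in postnatal day 1 bladder. That set was below the array median in the adult arrays, so that it passed the filter through the postnatal day 1 arrays alone. It fell by 5.01 on the log2 scale (95% interval -6.12 to -3.90, adjusted p = 0.00128).

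Mest, which is expressed from the paternal copy and encodes a protein of the alpha/beta hydrolase family, had 1 probe set. It measured 557, 630 and 677 in adult bladder, against 6160, 3220 and 5679 in postnatal day 1 bladder. The adult arrays lay close together, the postnatal day 1 arrays spread 1.91-fold, and the groups stood 4.75-fold apart at their nearest values. At 621 ± 60.4 in adult and 5020 ± 1578 in postnatal day 1 bladder (SD, n = 3 each), the adult level was 12.4% of that at postnatal day 1. The difference was -2.87 (95% interval -3.59 to -2.14, adjusted p = 0.00183), called in all 17 alternatives.

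Grb10 encodes an adaptor that binds the insulin and insulin-like growth factor 1 receptors and restrains their signal. Its probe set read 11226, 10161 and 12104 in adult bladder and 43878, 35785 and 44293 in postnatal day 1 bladder. Both ages showed a strong signal with little spread, and the groups did not overlap. Grb10 fell by 1.88 on the log2 scale (95% interval -2.31 to -1.45, adjusted p = 0.00134), and the adult level was 27% of that at postnatal day 1. A second Grb10 probe set had the same direction without a call (-1.31, adjusted p = 0.125), at 142, 114 and 167 in adult bladder, against 637, 219 and 508 in postnatal day 1 bladder.

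The probe set that stands for Plagl1, of a type whose probes can match several transcripts, gave a strong signal. It read 15937, 18823 and 15373 in adult bladder, against 54545, 46504 and 51342 in postnatal day 1 bladder. All adult values were lower, and those of each age were within 1.22-fold and 1.17-fold of each other (adult and postnatal day 1). Plagl1 fell by 1.60 on the log2 scale (95% interval -2.01 to -1.20, adjusted p = 0.00181) and kept its call in all 18 alternatives. Its second probe set read 52.7, 81.8 and 6.15 in adult bladder, against 671, 496 and 1861 in postnatal day 1 bladder, and was also called lower (-3.33, 95% interval -4.63 to -2.04, adjusted p = 0.0103). That set passed the filter through the postnatal day 1 arrays alone. The remaining Plagl1 set, too dim to be tested, overlapped between the ages.

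Ndn encodes necdin, a growth-restraining protein of the MAGE family best known from neurons. Its probe set read 20084, 18165 and 21717 in adult bladder and 38074, 38771 and 39925 in postnatal day 1 bladder. The groups did not overlap, and the postnatal day 1 arrays lay within 1.05-fold of each other. Ndn fell by 0.96 on the log2 scale (95% interval -1.35 to -0.58, adjusted p = 0.0117), which left the adult level at 51.4% of that at postnatal day 1. The call was lost without adult replicate 1 (adjusted p = 0.0553), without postnatal day 1 replicate 2 (0.0521), without a trend in the spread (0.0598) and when its probe sets were averaged (0.102). All 5 of its tested probe sets were called lower, between -1.48 and -0.85.

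Meg3, a long noncoding RNA of the maternal copy, read 11722, 7159 and 10827 in adult bladder, against 35526, 17076 and 20222 in postnatal day 1 bladder. All adult arrays lay lower, by 1.46-fold at the nearest values, and postnatal day 1 replicate 1 was high within its group. Meg3 fell by 1.25 on the log2 scale (95% interval -1.95 to -0.54, adjusted p = 0.0436), but the call was lost in 11 of 18 alternatives, including the removal of any 1 of the 6 bladder arrays (adjusted p from 0.0568 to 0.122). Without adult replicate 2 the difference was -1.03 (0.072) and without postnatal day 1 replicate 1 it was -0.94 (0.122).

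Peg3, a zinc finger protein gene of the paternal copy, was bright at both ages. It read 19959, 32625 and 23729 in adult bladder, against 40232, 39950 and 44568 in postnatal day 1 bladder. The groups did not overlap, but adult replicate 2 came within 1.22-fold of the lowest postnatal day 1 array. The difference of -0.74 (95% interval -1.22 to -0.26) was not called (adjusted p = 0.0676). Without adult replicate 2 it was -0.93 and called (0.0108), as it was with array weights (0.00607), with quantile normalization (0.0313) and when the 2 spike-in-rich arrays were left out (0.0206). Its other tested probe sets differed by -0.33 (adjusted p = 0.769) and 0.05 (0.973), and in both adult replicate 2 and postnatal day 1 replicate 3 were the high arrays of their groups.

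Peg10, a gene derived from a retrotransposon and needed for the placenta, was dim. Its 1 probe set read 81.9, 514 and 52.9 in adult bladder, against 496, 103 and 193 in postnatal day 1 bladder. The groups overlapped, adult replicate 2 and postnatal day 1 replicate 1 were each high in their group, and only 2 of the 6 bladder arrays exceeded the array median. Its difference, -0.47, was therefore not tested.

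Impact, which keeps the amino acid sensor Gcn2 from being activated by binding its partner Gcn1, went the other way. Its intensity was 9710, 6342 and 7534 in adult bladder, against 4251, 3556 and 2848 in postnatal day 1 bladder. All adult values were higher, with the nearest values 1.49-fold apart, and the adult mean was 221% of that at postnatal day 1. Impact rose by 1.13 on the log2 scale (95% interval 0.52 to 1.74, adjusted p = 0.0363). The call was lost in 10 of 18 alternatives, which include median centring (0.114) and leaving out each bladder array except adult replicate 2 (adjusted p up to 0.153). A second probe set read 56.4, 681 and 508 in adult bladder, against 96.5, 341 and 425 in postnatal day 1 bladder, so that the ages overlapped (0.22, adjusted p = 0.896).

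Tested probe sets of the same gene mostly pointed the same way. Of the 39 probe sets, 27 were tested and 12 were too dim, and of those tested 14 were called lower and 1 higher in adult bladder, with 23 negative differences. Over the whole array, 4.12% of tested probe sets were called lower and 3.73% higher. Among the 18 tested sets that did not stand for a gene, 7 were called lower, 0 higher, and 15 had negative differences. The second sets of Slc38a4, Plagl1 and Grb10 and 1 set of Meg3 passed the filter through the postnatal day 1 arrays alone. The filter thus favoured a fall in them, and they are not separate support in the counts given here. Sets too dim to be tested pointed both ways, with Ndn at 0.29, 0.23 and -0.03 and Plagl1 at 0.14. Meg3 had the most, with 8 of 9 tested sets negative but 2 called, and its differences ran from -2.06 to 0.23. Ndn showed 5 of 5 called. Slc38a4 and Plagl1 each showed 2 of 2, with 1 of the 2 favoured by the filter. Peg3 had 0 of 3, and Grb10 and Impact each had 1 of 2. The sets are not independent, since they read the same RNA, and the sets that stand for Dlk1, Meg3, Plagl1 and Ndn belong to types whose probes can match several transcripts.

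**Figure D2:**
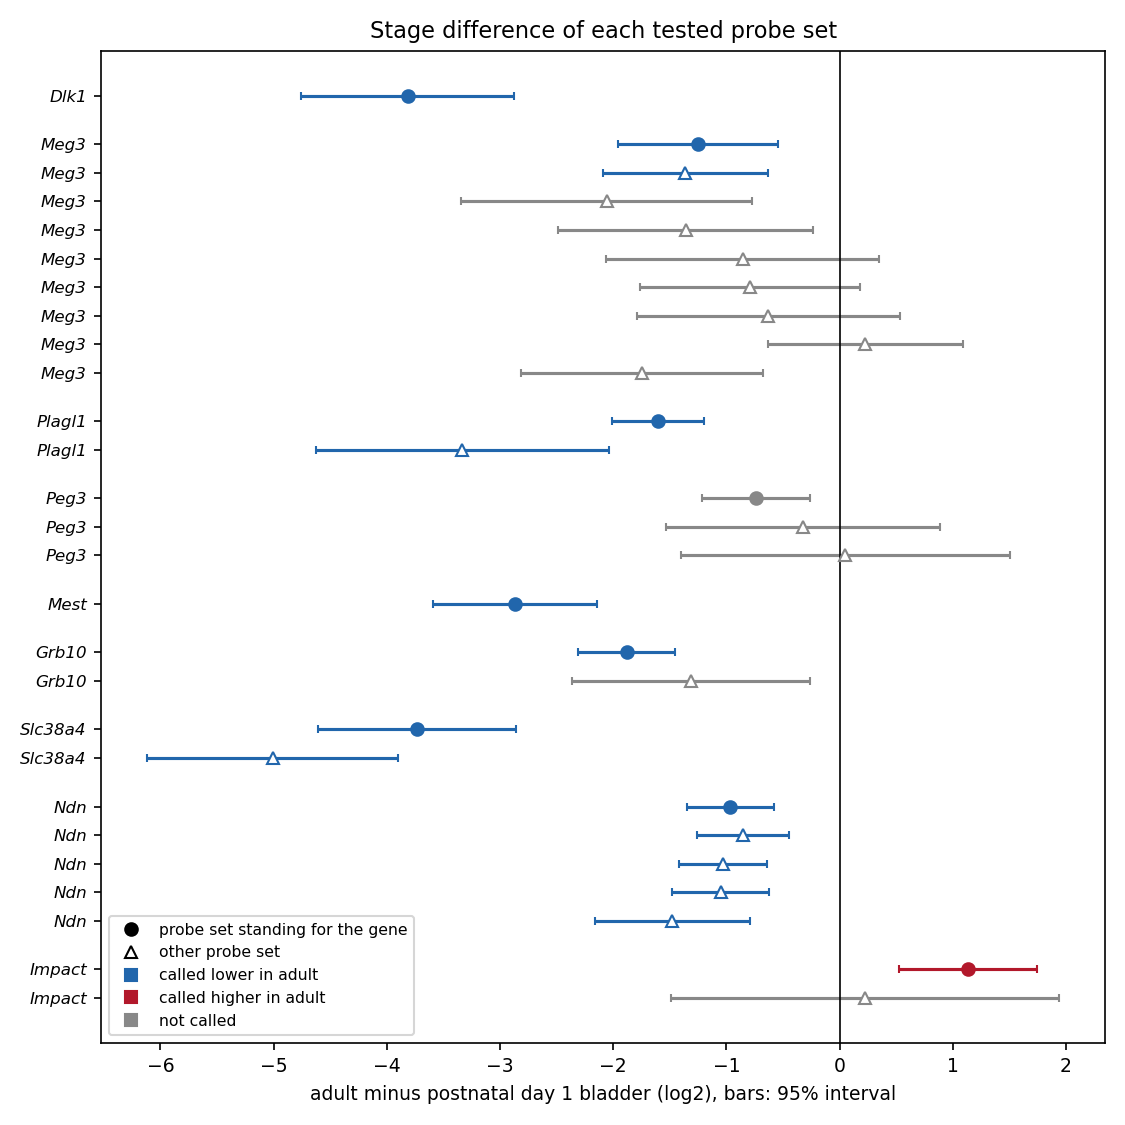
Difference of each tested probe set between adult and postnatal day 1 bladder (log2) with its 95% interval, grouped by gene. Filled circles are the sets that stand for a gene and triangles the others, in blue where called lower, red where called higher and grey where not called. All 5 Ndn sets lie between -1.48 and -0.85, the 9 Meg3 sets spread from -2.06 to 0.23, and Impact is to the right of 0.

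Between postnatal day 1 bladder and whole newborns no difference of these 10 genes passed the test. Dlk1 averaged 2341 ± 527 in postnatal day 1 bladder (SD, n = 3), against 3891 on the whole newborn array, and Mest 5020 ± 1578, against 8985. For both, and also for Grb10, Peg3 and Ndn, all postnatal day 1 bladder arrays lay below the whole newborn array. Such an order is easily reached against 1 array, and its share over all genes was not counted. Grb10 averaged 41318 ± 4797 in postnatal day 1 bladder (SD, n = 3), against 50808 in whole newborns. Plagl1 averaged 50797 ± 4048, against 48403, a difference of 0.066 by the authors' scaling and of 0.75 with arrays centred on their medians (95% interval 0.14 to 1.35, adjusted p = 0.107). Of the 10 genes 0 were called by limma, where 6.39% of 13745 tested genes were called lower and 3.19% higher, and 0 had an unadjusted p under 0.05 (lowest 0.077). The median difference of the 10 was -0.39, against -0.0031 over all tested genes and -0.15 over all tested probe sets. The intervals were wide, as the single whole newborn array has no replicate and was assumed to vary like the bladders. That of Dlk1 ran from -2.08 to 0.58 around -0.75 and that of Peg10 from -2.95 to 1.68 around -0.63, while the narrowest, of Ndn, ran from -1.01 to 0.07 around -0.47.

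The direction of several of these differences turned with the scaling. As scaled by the authors, 7 of the 10 differences between postnatal day 1 bladder and whole newborns were negative, and with each array centred on its median 2 were, those of Dlk1 (-0.064) and Mest (-0.21). With centring the median difference was 0.29 for the 10 genes, against 0.68 over all tested genes and 0.53 over all tested probe sets. Relative to the median of all probe sets under the authors' scaling, the differences were -0.74 for Mest, -0.60 for Dlk1, -0.48 for Peg10, -0.37 for Peg3, -0.32 for Ndn, -0.15 for Grb10, -0.14 for Slc38a4, 0.22 for Plagl1, 0.34 for Meg3 and 0.77 for Impact. The second probe sets of Dlk1 and Slc38a4 had larger differences without a call. For Dlk1 that set held 1396, 324 and 186 in postnatal day 1 bladder, against 3919 in whole newborns (-2.98, adjusted p = 0.0889), and for Slc38a4 it held 2668, 3500 and 3378, against 11162 (-1.80, adjusted p = 0.157).

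Adult bladder stood below whole newborns for most of these genes. Dlk1 was at 3.36% of its whole newborn level, Slc38a4 at 6.13% and Mest at 6.92%, with differences of -4.56 (adjusted p = 0.00181), -4.02 (0.0022) and -3.76 (0.00123). Dlk1 passed the filter here through the whole newborn array alone, which favoured a fall, and its call held in all 17 alternatives. Grb10 (-2.18, adjusted p = 0.00136), Plagl1 (-1.54, 0.00565), Ndn (-1.43, 0.00636) and Peg3 (-1.26, 0.0287) were also lower in adult bladder, and Impact was higher, at 347% of the whole newborn level (1.75, 0.0193). Meg3 (-1.06, adjusted p = 0.166) and Peg10 (-1.10, 0.548) were not called. In all, 7 genes were called lower and 1 higher, against 9.23% and 6.10% of 13504 tested genes. With median centring 4 were called lower and 1 higher, since Plagl1 (-0.87, 0.0615), Ndn (-0.77, 0.146) and Peg3 (-0.59, 0.176) lost their calls. This comparison shares arrays with the other 2 and is not separate evidence. Peg3 lost its call in 8 of 17 alternatives. Among them were leaving out postnatal day 1 replicate 1 (0.0505) or 2 (0.05), adult replicate 1 (0.0743) or adult replicate 3 (0.085), and its second probe set (-2.06, 0.12). Impact lost its call without adult replicate 1 (0.0615) or 3 (0.0593). By its second probe set Impact was at -1.55 in this comparison (adjusted p = 0.407).

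**Figure D3:**
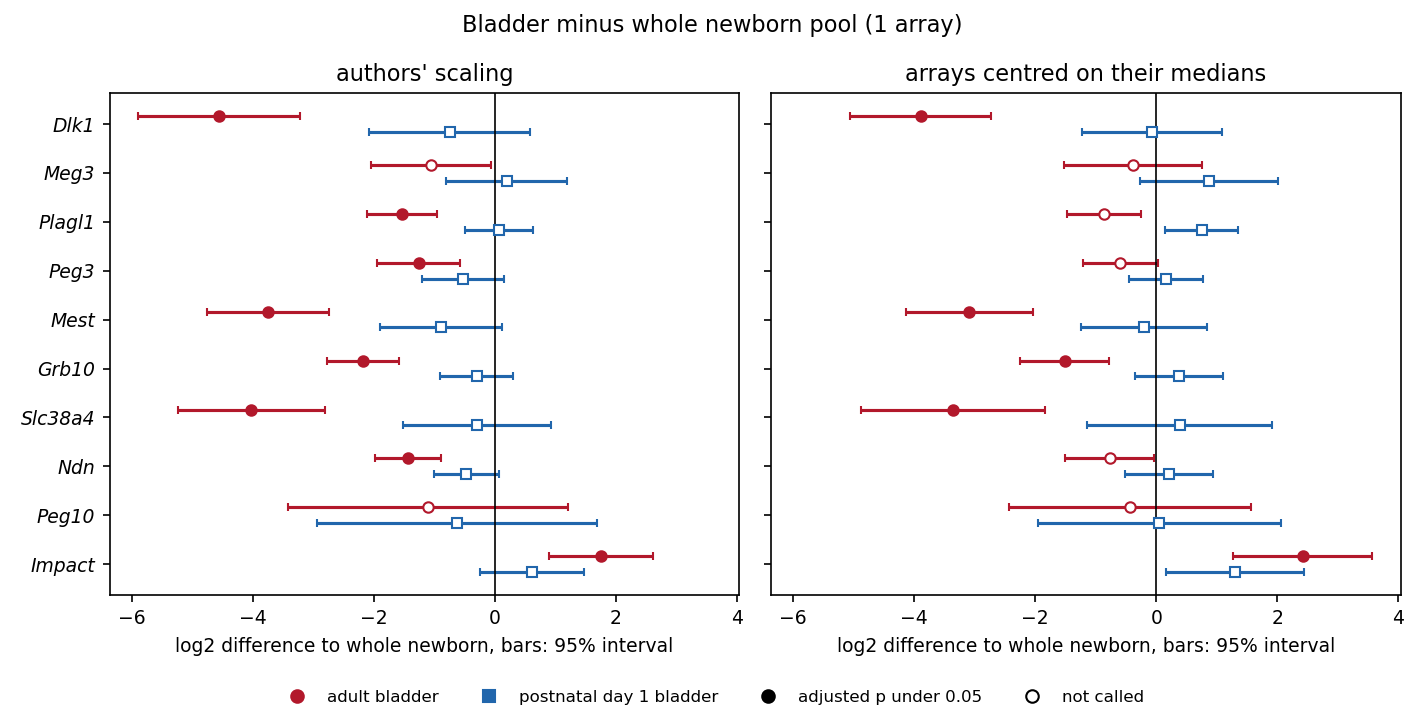
Differences of adult bladder (circles) and postnatal day 1 bladder (squares) to the whole newborn array (log2) with 95% intervals, by the authors' scaling on the left and with arrays centred on their medians on the right. Filled symbols have an adjusted p under 0.05. All postnatal day 1 symbols are open, and Dlk1, Mest, Slc38a4, Grb10 and Impact keep a filled adult symbol under both scalings.

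Other genes that belong to the same network, listed with earlier results known, split. Of 7 tested (8 listed), 2 were called lower in adult bladder and 0 higher, beside 4.95% of all tested genes called lower and 4.02% higher, with a median of -0.32. Igf2, the paternally expressed fetal growth factor, read 458, 1375 and 712 in adult bladder, against 13991, 9014 and 14025 in postnatal day 1 bladder (-3.89, adjusted p = 0.00134). Cdkn1c, a maternally expressed inhibitor of cyclin-dependent kinases, read 410, 733 and 445 in adult bladder, against 7596, 5077 and 12274 in postnatal day 1 bladder (-3.80, adjusted p = 0.00128). In both, every adult array was far below every postnatal day 1 array, as in Dlk1. Igf2r (-0.90, adjusted p = 0.155), which clears Igf2, and Gnas (-0.32, 0.463), a G protein subunit, were not called, nor were Sgce (0.40, 0.417), Gatm (0.71, 0.259) and Dcn (0.72, 0.163).

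Of 28 tested genes in the chromosomal domains of the 10 (43 listed), 2 were called lower and 0 higher, or 7.14% called lower beside 4.95% of all tested genes, with a median of -0.12. They were Tfpi2, a protease inhibitor in the Peg10 domain (-1.97, adjusted p = 0.0092), and Fignl1, an ATPase of DNA repair next to Grb10 (-2.75, adjusted p = 0.0117). Fignl1 read 363, 243 and 425 in adult bladder, against 1097, 3664 and 3992 in postnatal day 1 bladder. Zim1 beside Peg3 was at -1.69 (adjusted p = 0.0508) and Magel2 beside Ndn at -1.27 (0.123). In the domain of Dlk1 and Meg3, the noncoding RNA Rian was at -0.56 (adjusted p = 0.438), against -3.82 for Dlk1 and -1.25 for Meg3.

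Of 22 tested imprinted genes from elsewhere (30 listed), 2 were called lower and 0 higher, or 9.09% called lower beside 4.95% of all tested genes, with a median of -0.35. Dhcr7, the enzyme of the last step of cholesterol synthesis, read 880, 833 and 921 in adult bladder, against 2902, 3811 and 2497 in postnatal day 1 bladder (-1.73, adjusted p = 0.00835). Zdbf2, a paternally expressed zinc finger gene, was at -1.67 (adjusted p = 0.0126). Qpct (-2.35, adjusted p = 0.0897) and Sfmbt2 (-1.83, 0.0792) were not called.

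Calls were spread over several groups of genes that work with the 10. Of 35 tested (40 listed, 3 of them also among the neighbours), 7 were called lower and 1 higher, or 20% and 2.86%, beside 4.95% and 4.02% of all tested genes, with a median of -0.28. Beside Slc38a4, 2 of 5 amino acid transport genes were lower, Slc7a5 (-2.23, adjusted p = 0.00785), which carries large neutral amino acids, and Slc7a1 (-1.37, 0.012), which carries cationic ones, whereas Slc38a1 (-0.08, 0.876) and Slc38a2 (-0.66, 0.133), relatives of Slc38a4, were not called. Of the necdin family and its partners 2 of 4 were lower, Maged2 (-1.88, adjusted p = 0.00433) and Maged1 (-0.88, 0.0452). Atf4, the transcription factor downstream of Gcn2, was lower (-1.04, adjusted p = 0.0236), at 6766, 9013 and 6994 in adult bladder and 14190, 17928 and 14859 in postnatal day 1 bladder. Its sign was opposite to that of Impact, whose call was lost in 10 of 18 alternatives, and a link between Atf4 and Impact was not tested. Eif2ak4, which encodes Gcn2 (-0.53, 0.507), and Gcn1 (-0.41, 0.481) were not called.

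Around Grb10, the receptors Igf1r (-0.07, adjusted p = 0.902) and Insr (0.77, 0.0997) were not called. Grb14, the relative of Grb10 that also restrains the insulin receptor, was the 1 gene called higher, at 9895, 8636 and 9762 in adult bladder, against 5628, 3183 and 4122 in postnatal day 1 bladder (1.16, adjusted p = 0.0317). Irs1, a substrate of those receptors, was lower (-1.09, 0.0415). Of the Notch genes around Dlk1, Dlk2, its paralogue, was lower (-1.39, adjusted p = 0.0362), and Notch1 (1.21, 0.0528), Notch2 (-0.15, 0.752), Jag1 (-0.28, 0.538) and Hes1 (0.44, 0.474) were not called. Of 6 tested factors that guard imprints 0 were called, among them Trim28 (-0.19, 0.722) and Ctcf (-0.28, 0.569). Maged1 and Irs1 are named to complete the count and were chosen, like the uncalled genes above, after their values were seen.

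**Figure D4:**
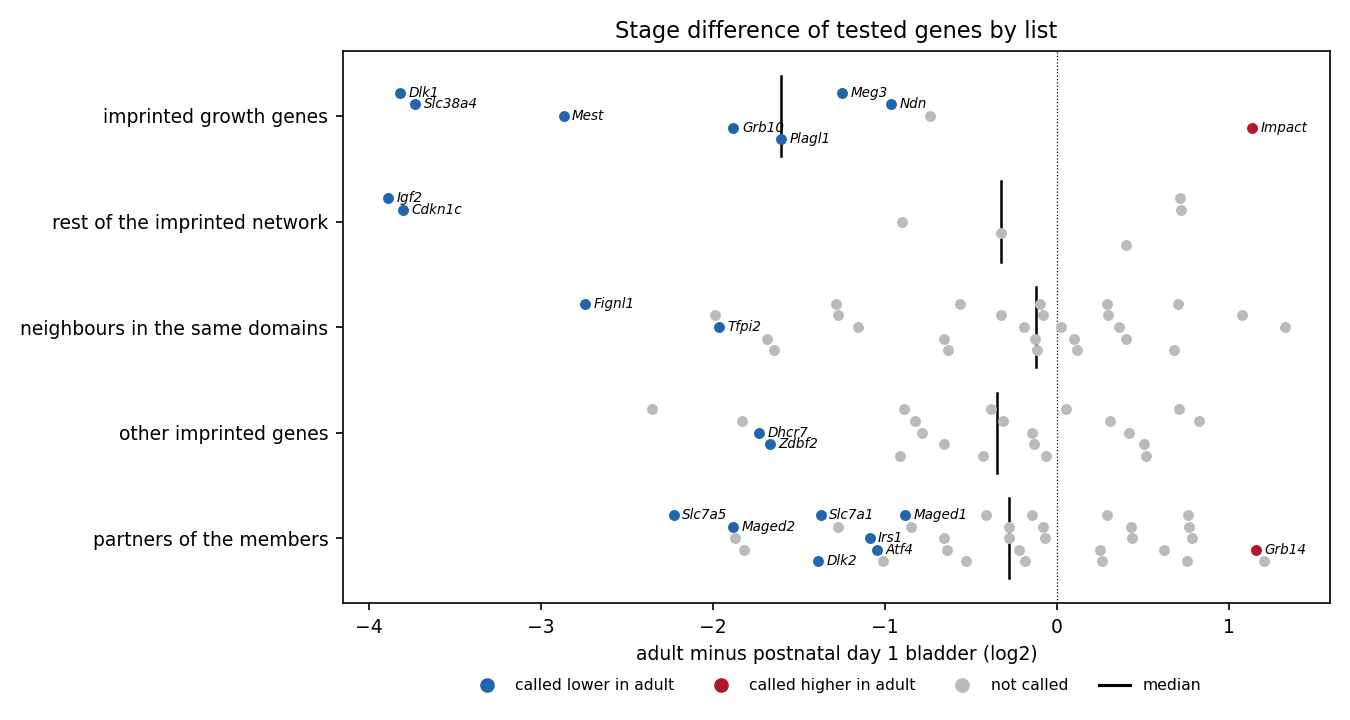
Difference between adult and postnatal day 1 bladder (log2) of each tested gene, by list, with the median of each list as a vertical line. Blue points were called lower, red higher and grey not called. The 9 tested growth genes have a median of -1.60, and the other 4 lists have medians between -0.35 and -0.12, with 2 of 7, 2 of 28, 2 of 22 and 8 of 35 genes called from top to bottom.

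Markers of several cell types moved with the stage as well, where 4.95% of all tested genes were called lower and 4.02% higher. All 7 tested markers of dividing cells were called lower, with sums of 1880 to 2469 in adult bladder, against 25797 to 48181 in postnatal day 1 bladder and 34126 in whole newborns. All 7 tested markers of skeletal muscle were lower, with sums of 18109 to 18388 in adult bladder, against 79046 to 117175 in postnatal day 1 bladder and 324098 in whole newborns, and Myh3 was at 14.1 to 16.5 in adult bladder. Neuronal markers were lower in 3 of 7, with sums of 1319 to 7146 in adult and 8313 to 14007 in postnatal day 1 bladder, and adult replicate 2 was the lowest. Fibroblast markers were lower in 1 of 7, Col1a1, and smooth muscle and urothelial markers were called in 0 of 7 each. The 5 adipocyte markers on the array summed to 25475 to 28133 in adult bladder, against 39924 to 50169 in postnatal day 1 bladder and 62613 in whole newborns. Of the 2 tested, Fabp4, the fatty acid binding protein of fat cells, was called lower (-0.74) and Adipoq, the fat hormone adiponectin, higher (3.65), at 1167, 466 and 1231 in adult bladder, against 51.6, 2.28 and 30 in postnatal day 1 bladder. Adipoq was below the array medians at postnatal day 1 and passed the filter through the adult arrays alone, which favoured its call. The same limit holds for any tested marker that was dim at 1 age. The part of these cell types in the differences of the imprinted genes was not tested. Within adult bladder, replicates 1 and 3 carried accessory gland transcripts and replicate 2 did not. Dlk1, Peg3 and Peg10 were higher in replicate 2, Meg3, Slc38a4 and Impact were lower there, and Mest, Grb10, Plagl1 and Ndn stayed within 1.22-fold. Without replicate 2 the differences between adult and postnatal day 1 bladder were -4.17 for Dlk1, -3.41 for Slc38a4, -2.88 for Mest, -1.81 for Grb10, -1.69 for Plagl1 and -0.90 for Ndn, all called. Peg3 (-0.93, adjusted p = 0.0108) and Impact (1.28, 0.0283) were called too, and Meg3 was not (-1.03, 0.072). Only the adult arrays with accessory gland transcripts remain in these fits, so the part of that tissue was not tested.

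Genes with the most similar profile over the 7 arrays were found by the root mean square difference of log2 values after each gene was centred on its own mean, among 11929 other tested genes. Closest to Dlk1 were Cdkn1c (0.31), Cdc20 (0.34), a mitotic activator, and Capn6 (0.39), with Mest as the nearest of the imprinted genes described here, at rank 20 (0.57). Closest to Slc38a4 were Igf2bp3 (0.20), a fetal RNA-binding protein, and the mitotic genes Ndc80 (0.36) and Aspm (0.42), with Mest at rank 22 (0.67). For Mest they were Ddias (0.23), Clic6 (0.29) and Ube2c (0.34), with Dlk1 at rank 48 (0.57). Grb10 and Plagl1 lay close to each other (0.27), Plagl1 at rank 17 for Grb10 and Grb10 at rank 28 for Plagl1. Nearest to Grb10 were Prim1 (0.18), Kpna2 (0.18) and Chaf1b (0.19), and nearest to Plagl1 were Rps4l (0.18), Nrep (0.18) and Col7a1 (0.18).

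For Ndn the nearest genes were Timm8a1 (0.12), Cycs (0.12) and Prim2 (0.14), for Peg3 Tbc1d7 (0.07), Prkar1b (0.09) and Stmn1 (0.12), and for Meg3 Bmp1 (0.19), Eif2ak1 (0.21) and Aldh1a3 (0.21). Meg3 was far from its domain neighbour Dlk1 (1.54, rank 11474), and the reverse rank was 691. The distance counts the size of a change as well as its direction, and both genes fell with the stage. Impact, which rose, was nearer to Meg3 than Dlk1 was (1.26, rank 10676). Impact was nearest to Cep19 (0.07), Trim56 (0.14) and Plce1 (0.16). Peg10, ranked among 11930 genes, was nearest to Cxcl1 (0.35), C2cd3 (0.36) and Jund (0.38). These distances are a description over 7 arrays that share the stage and the scaling, and small distances are easier to reach for genes that vary little.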

How the data were processed

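RNA was amplified in 2 rounds and hybridized to 1-colour Affymetrix mouse 430 2.0 arrays. The authors deposited linear intensities. Per the submitters' processing notes GCOS was used, with a summary method not given in the sources used here. Trimmed by 2% at each end, the mean intensity came to 1500.01 on each array. Of 45101 probe sets 64 controls were left out. Of the rest 34945 name 1 gene in the platform annotation, 932 several and 9160 none.

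Values were analysed as log2(intensity + 49), 49 being the 20th percentile of all values. The stage comparison used the 6 bladder arrays and probe sets above the array median in at least 3 of them. Comparisons with whole newborns used all 7 arrays in 3 groups and probe sets above the median in at least 1 of the 4 arrays compared. Tests were made with limma 3.58.1 in R 4.3.3 (lmFit, eBayes with a trend, two-sided, Benjamini-Hochberg), and were tested on simulated data. Calls per gene use 1 probe set each. The members and lists were chosen with earlier results of these data known. From each list, called genes were named, up to 6 by adjusted p. Alternatives covered the added constant, scaling, filter, spread, probe set and arrays left out. When an array was left out, 2 arrays had to pass the filter. The number of arrays limits the precision.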

Additional observations from a re-analysis of the deposited data

How the results depend on the processing

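The number of members called between adult and postnatal day 1 bladder was 8, and it was 5 with eBayes without a trend, 5 by the mean of the probe sets of a gene and 4 by the second probe set, which not all members have. It was 5 to 8 when single arrays were left out, with 5 without adult replicate 1 or postnatal day 1 replicate 2. Between adult bladder and whole newborns it was 8, 5 with median centring, 4 by the second probe set and 6 to 8 without single arrays. Over all probe sets the stage count of 1829 became 4660 with array weights and 606 to 2321 without single arrays. For postnatal day 1 bladder against whole newborns 2101 became 4172 with array weights, 4087 when the 2 spike-in-rich arrays were left out and 1409 to 2620 without single arrays, and for adult bladder 3255 became 8364, 6130 and 1799 to 4693. The cause of these moves was not tested.

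Directions against whole newborns turned in some settings. For postnatal day 1 bladder these were Meg3 (-0.12 to 0.41 without single arrays, the lowest without postnatal day 1 replicate 1, and -0.23 by the second probe set), Plagl1 by the mean of its sets (-0.70), Impact (-0.86 by the mean, -1.77 by the second set), Peg10 with quantile normalization (0.067), and with median centring Peg3 (0.16), Grb10 (0.38), Slc38a4 (0.39), Ndn (0.21) and Peg10 (0.050). For adult bladder Impact turned by the mean of its sets (-0.20) and by the second set (-1.55). In the stage comparison the differences of Dlk1, Mest, Plagl1 and Slc38a4 kept their direction and their call under all alternatives run, and Grb10 lost its call only by its second probe set. The filter favoured a fall in the second probe sets of Plagl1, Slc38a4 and Grb10. Peg10 was at 0.03 without postnatal day 1 replicate 1. No paired analysis was possible because the labels give the groups no shared replicate numbers. Dim values limit Dlk1 in adult bladder and Peg10 throughout.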
